A study of Mus musculus with 309 samples.

Results

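The matrix metalloproteinases and their inhibitors were followed through 309 mouse mammary tumours of 24 tumour models. The family comprised 10 of the 55291 gene symbols in the deposited count table, chosen by their symbols: the proteases Mmp2, Mmp3, Mmp9, Mmp10, Mmp11, Mmp12, Mmp13 and Mmp14 and the inhibitors Timp1 and Timp3. They were chosen with their untreated level in each model and their change with each treatment in view. Calls of the members against untreated tumours are therefore part of that description and support nothing. Only the comparisons between treatments in models that had no untreated tumours use values outside those levels and changes. The members were chosen with earlier results of these data known, so independence from the choice is not established there either. All 10 passed the filter on low counts in every comparison.

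Each tumour is labelled as a mammary tumor with a model and a treatment, and poly(A) RNA was sequenced from cryopreserved tissue. Untreated tumours numbered 64 (18 models). Trametinib, an inhibitor of the kinase MEK, had been given to 65 tumours (22 models), and erlotinib, an inhibitor of the growth factor receptor EGFR, to 66 (22 models). The chemotherapy, which joined carboplatin (it damages DNA) with paclitaxel (it stabilises microtubules), had been given to 66 tumours (22 models). Anti-PD1 plus anti-CTLA4, a pair of antibodies to inhibitory receptors of T cells, had been given to 48 (16 models). Model and treatment together define 100 groups, of which 92 have 3 tumours. The labels used here give no genotype, strain, age, dose or time of collection, and they do not say that tumours came from separate animals, so p-values measure the spread between these samples. By common usage of the names, which the labels do not spell out, MMTV-Neu, MMTV-PyMT and C3-TAG carry an oncogene driven by a promoter active in mammary epithelium, and 4T1 and E0771 are established mouse mammary carcinoma cell lines.

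Library totals ranged from 12.1 M to 226 M estimated counts (M, mega; median 78.6 M), with a median of 76.9 M for the untreated group. The median was lower for erlotinib (34.3 M) and trametinib (39.3 M) and higher for the antibodies (113 M) and chemotherapy (103 M). Epcam, an adhesion protein of epithelial cells, separated the untreated models: the mean was 280.2 to 1782 CPM (counts per 1 M counts of the library) in 10 of them and 0.320 to 3.11 CPM in T12, p53RB-624, T11-APOBEC, T11, E0771, K14-TRT, p53RB-426 and p53RB-626, where the epithelial identity of a mammary tumour was thus not seen by this marker. Among these samples E0771 and KPB25L-APOBEC had 1 untreated tumour each, and K14-TRT had untreated tumours only. The tumours carry running library numbers whose meaning the labels do not give. Where the untreated tumours of a model lay within 100 of the mean number of its treated tumours they are called adjacent below. Changes of members that were called against untreated tumours are given also over the adjacent tumours alone. Those of other genes and of cell markers are not.

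Matrix metalloproteinases are zinc proteases that cut collagens, proteoglycans and other proteins outside the cell, and are made as inactive proenzymes. Mmp2 and Mmp9 are the gelatinases, which cut denatured collagen and basement membrane collagen. Mmp13 is the main interstitial collagenase of rodents, Mmp3 and Mmp10 are the stromelysins, Mmp11 is a furin-activated enzyme known from the stroma around carcinomas, and Mmp12 is the elastase of macrophages. Mmp14 is held in the cell membrane and activates the Mmp2 proenzyme, and the tissue inhibitors Timp1 and Timp3 bind the active enzymes. In breast tumours many of these genes are transcribed by fibroblasts and macrophages rather than by the carcinoma cells. In bulk tissue, fewer cells of a type and less RNA per cell cannot be told apart.

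Of the members, 4 lie together. In the GENCODE annotation of GRCm38 (mm10), 10 metalloproteinase genes stand within 427 kb of chromosome 9, and Mmp13 (chr9:7272514-7283331), Mmp12 (chr9:7344381-7369499), Mmp3 (chr9:7445822-7455975) and Mmp10 (chr9:7502352-7510240), all on the plus strand, take up 238 kb of it. The others are scattered: Mmp2 at chr8:92827291-92853420, Mmp9 at chr2:164940780-164955850, Mmp14 at chr14:54431612-54445364, Timp1 at chrX:20870166-20874735 and Timp3 at chr10:86300372-86349506 on the plus strand, and Mmp11 at chr10:75923222-75936496 on the minus strand. The 100 bases before an annotated start are shown for the clustered members because these 4 share a word there. Capitals mark TGAGTCA or, the same word read on the other strand, TGACTCA, the classical site of the transcription factor AP-1, whose Fos subunits respond to ERK signalling.
Mmp3 promoter: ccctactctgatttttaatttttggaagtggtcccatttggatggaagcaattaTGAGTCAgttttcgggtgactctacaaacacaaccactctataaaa
Mmp10 promoter: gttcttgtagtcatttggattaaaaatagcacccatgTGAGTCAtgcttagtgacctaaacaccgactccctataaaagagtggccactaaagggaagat
Mmp12 promoter: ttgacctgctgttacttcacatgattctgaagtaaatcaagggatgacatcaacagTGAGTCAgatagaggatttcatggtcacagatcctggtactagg
Mmp13 promoter: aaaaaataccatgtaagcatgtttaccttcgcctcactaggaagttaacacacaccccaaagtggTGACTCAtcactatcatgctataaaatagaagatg
The sequences are from RefSeq on GRCm38.p6 and lie at chr9:7445722-7445821, chr9:7502242-7502341, chr9:7347274-7347373 (the downstream of 2 annotated Mmp12 starts, the window of the upstream one holding no match) and chr9:7272414-7272513, all on the plus strand. The word began 46 bases before the annotated start in Mmp3, 63 in Mmp10, 44 in Mmp12 and 35 in Mmp13. The letters TATAAA followed it on the printed strand after 32 bases in Mmp3, 27 in Mmp10 and 12 in Mmp13, with no overlap. In Mmp12 they followed after 41, past the annotated start and outside the printed bases.

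Searched on both strands in windows from 250 bases before to 50 after a start, the word was present in 4 of the 8 members with a window (50.0%), and Mmp11, Mmp14, Timp1 and Timp3 had none in that window. It was present in 3 of 14 other genes of the family, its inhibitors included (21.4%), which were Mmp1a, Mmp1b and Mmp7 of the same cluster. Over the table, 1709 of 32851 windows (5.2%) and 5.95% of 27025 genes held it. A match is a description of these letters and shows no binding.

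Levels can be compared between genes only per length of transcript. On the scale of CPM per kilobase of exon, as the median of the untreated models, Timp1 was highest at 112, followed by Mmp14 at 81.8 and Mmp2 at 49.4. Mmp9 (20.2) and Timp3 (19.8) were intermediate. Mmp3 stood at 8.70, Mmp13 at 5.62, Mmp11 at 5.52, Mmp10 at 2.47 and Mmp12 at 1.86. By these medians the membrane protease, the gelatinase it activates and an inhibitor were the abundant transcripts, and the clustered genes and Mmp11 the scarce ones. In their highest models Mmp3 reached 96.1, Mmp13 61.0 and Mmp10 51.6, against 166 for Mmp2. The length was that of all annotated exons of a gene merged, not of a single transcript. It was 7.24 kb for Mmp12 and 1.80 kb for Mmp3, so the place of Mmp12 depends on it.

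Untreated models differed far more in some members than in others. Between the highest and the lowest of the 16 models with at least 3 untreated tumours (62 tumours), the ratio of mean CPM was 1054 for Mmp10, 188 for Mmp3, 146 for Mmp9, 94.6 for Mmp13, 42.2 for Timp1, 40.3 for Timp3, 29.1 for Mmp12, 22.3 for Mmp2, 19.3 for Mmp14 and 12.7 for Mmp11. MMTV-Neu was the lowest model for 8 of the 10 members. The exceptions were Mmp12, lowest in 2153, and Timp3, lowest in K14-TRT at 9.67 ± 3.15 CPM (SD, n = 9). The share of the variance of log2 CPM that lay between models ran from 65.8% for Mmp12 to 95.8% for Mmp14.

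Among the gelatinases, Mmp2 was highest by mean in p53RB-624 at 560.0 ± 42.1 CPM (SD, n = 3), above every tumour of the next model, p53RB-426. An untreated KPB25L tumour had 702 CPM, above those of p53RB-624. Mmp2 was lowest in MMTV-Neu at 25.1 ± 7.83 (SD, n = 3). Mmp9 was near 130 CPM in a group of models, with 133 ± 24.5 (SD, n = 6) in p53RB-626, 132 ± 3.98 (SD, n = 3) in p53RB-624, 127 ± 53.1 (SD, n = 9) in K14-TRT and 122 ± 71.7 (SD, n = 3) in T12, whose tumours overlapped. It was almost absent from MMTV-PyMT (1.41 ± 0.604, SD, n = 3) and MMTV-Neu (0.915 ± 0.239, SD, n = 3). Mmp14 ran from 854 ± 34.8 CPM (SD, n = 3) in p53RB-624 to 44.3 ± 0.603 (SD, n = 3) in MMTV-Neu.

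Mmp3 stood apart in 1 model: p53RB-624 had 173 ± 68.8 CPM (SD, n = 3), and all its tumours lay above those of K14-TRT, next in order at 43.9 ± 27.8 (SD, n = 9). The other stromelysin had another order. Mmp10 was highest in KPB25L at 88.8 ± 40.2 CPM (SD, n = 3) and its derivative by name KPB25L-UV at 58.5 ± 4.43 (SD, n = 3), before p53RB-624 at 35.6 ± 15.9 (SD, n = 3), and the single untreated KPB25L-APOBEC tumour had 78.9. In MMTV-Neu it was 0.0843 ± 0.0656 CPM (SD, n = 3), and it had no count in 6 of all 309 tumours. Mmp13 combined both orders, with 163 ± 71.5 CPM (SD, n = 3) in p53RB-624 and 142 in KPB25L.

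Mmp11 was highest in KPB25L at 70.4 ± 44.7 CPM (SD, n = 3) and Mmp12 in the same model at 90.1 ± 82.9 (SD, n = 3), where 1 of the 3 tumours carried most of the mean. Timp1 was highest in T12 at 310.0 ± 47.4 CPM (SD, n = 3), above every p53RB-624 tumour (228 ± 1.83, SD, n = 3), and lowest in MMTV-Neu at 7.35 ± 2.42 (SD, n = 3). Timp3 was highest in C3-TAG at 390.2 CPM, where its 4 tumours ran from 71.1 to 669.6 and so overlapped T12 at 301 ± 66.2 (SD, n = 3). Across the orders of the 10 genes, 11 to 14 of the 15 pairs of neighbouring models overlapped, so the orders hold between the ends and not between neighbours.

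**Figure D1:**
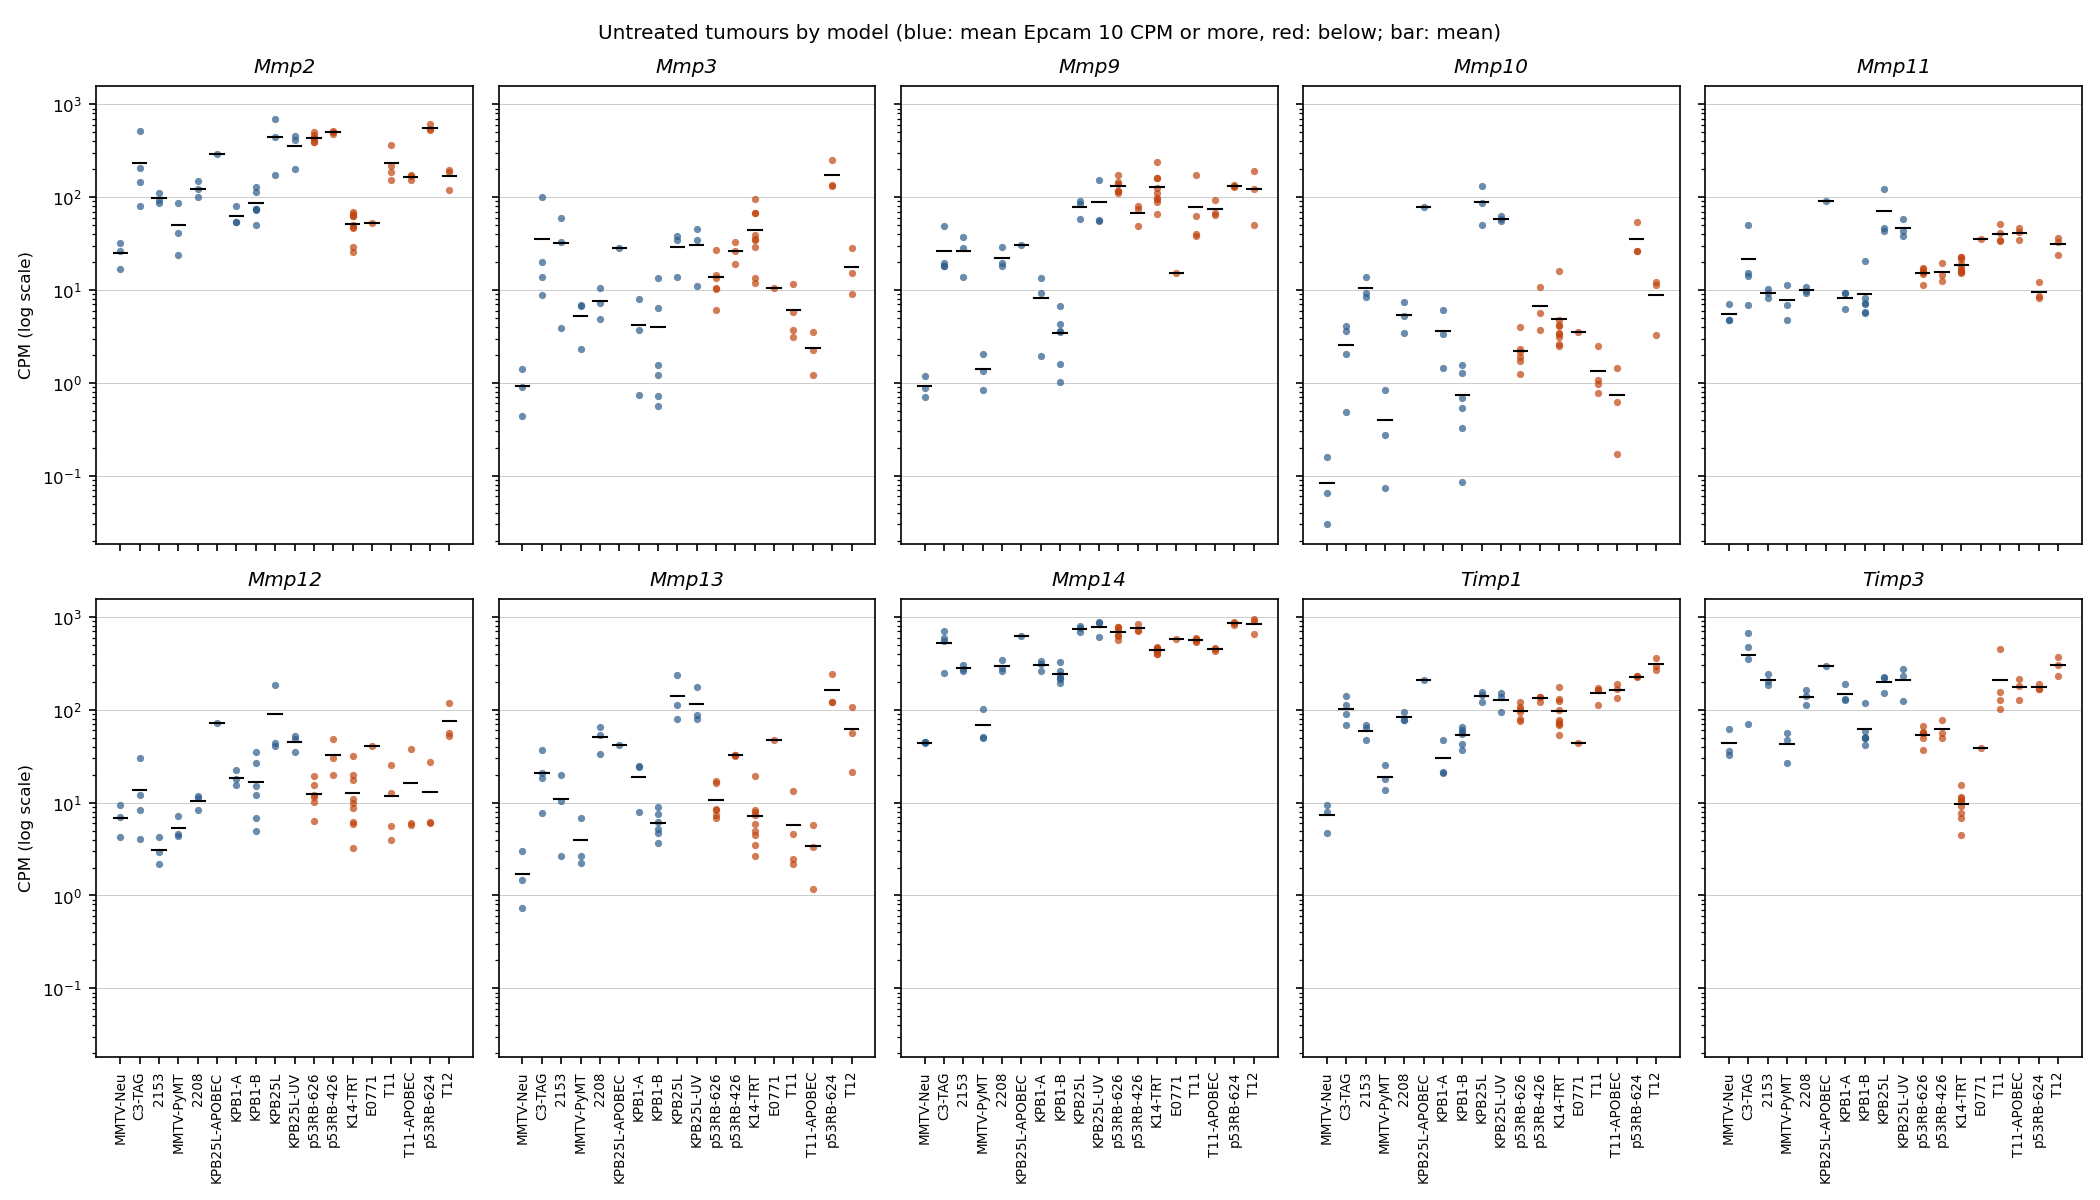
Untreated levels of the 10 genes by model. The vertical axis is CPM on a log scale, each point is a tumour, each bar the mean of a model, and red marks the 8 models with a mean of Epcam under 10 CPM. MMTV-Neu is the lowest model in 8 panels, and Mmp10 has the widest range, from 0.0843 CPM in MMTV-Neu to 88.8 in KPB25L.

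Trametinib was compared with no treatment in 16 models (48 against 54 tumours). Most of the family was higher, and Mmp10 and Timp1 were lower. By the rule used for all genes (edgeR's quasi-likelihood test, Benjamini-Hochberg adjusted p under 0.05), 6 members were called higher and 2 lower. The Mmp13 call did not hold without replicate 1 (0.63), 2 (0.63) or 3 (0.46), nor that of Mmp10 without replicate 3 (-0.63). Of 25685 genes tested, 14.1% were called higher and 14.1% lower. The median log2 fold change was 0.50 over the members and 0.00 over all genes. Because the members were chosen on this contrast, nothing is read from the count. Replicate numbers here and below only count the tumours within a group. They are not given in the titles and link no tumours between groups. Leaving out replicate 1 removes a tumour from every group, and with its only untreated tumour also the model E0771.

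The gelatinase Mmp2 ranged from 16.7 to 702 CPM (median 161) in untreated tumours and from 48.8 to 2323 (median 324) with trametinib, a log2 fold change of 1.26 ± 0.146 (SE), and its mean was higher in 15 of 16 models. In T11-APOBEC the untreated tumours had 153, 169 and 174 CPM and the trametinib tumours 559.6, 600.5 and 603. In 13 models (12 of them with more than 1 untreated tumour) every trametinib tumour lay above every untreated one. The exception, p53RB-626, went the other way. Its 6 untreated tumours ran from 392 to 499.7 CPM (median 429.7), and the treated ones had 210.2, 280.2 and 301 CPM, all below. The share of all genes that separate without overlap was not counted, here or for the counts of models below.

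Mmp14, which activates Mmp2, had medians of 552 CPM untreated (range 43.7 to 939) and 728 treated (53.2 to 1491), a log2 fold change of 0.47 ± 0.0794 (SE). It was higher in 14 models, without overlap in 7. In T11 the untreated tumours had 532, 550.1, 581 and 592 CPM and the treated ones 1218, 1273 and 1279. Mmp9, the other gelatinase, had medians of 44.4 and 43.9 CPM and was not called (log2 fold change -0.15 ± 0.161, SE). Models opposed each other in it: T11-APOBEC went from 64.6, 68.0 and 92.6 CPM to 136, 181 and 199, and MMTV-PyMT from 0.834, 1.35 and 2.04 CPM to 0.198, 0.391 and 0.431.

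Mmp11 was higher in all 16 models, by 1.19 ± 0.109 (SE) on the log2 scale, and without overlap in 11. Its median was 14.3 CPM untreated (range 4.70 to 122) and 33.0 treated (7.38 to 229). In 2208 it went from 9.23, 9.77 and 10.9 CPM to 37.3, 39.3 and 42.1, the largest difference of any model (log2 1.99), and in 2153 from 8.17, 9.36 and 10.2 to 31.3, 32.3 and 33.8. Within each of these groups the tumours differed little.

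The stromelysins parted. Mmp3 was higher by 1.45 ± 0.216 (SE) on the log2 scale. Its mean log2 CPM was higher in 15 models, without overlap in 9. The medians were 10.3 CPM untreated (0.438 to 252) and 28.1 treated (3.92 to 665). Mmp10 was lower by 0.86 ± 0.228 (log2 fold change -0.86), with medians of 2.90 CPM (0.0305 to 131) and 1.04 (0 to 301). The models did not all fall: Mmp10 was higher in 5 of the 11 with adjacent libraries and in 1 of the 5 others. It was lower without overlap in 4 models, as in 2153, where the untreated tumours had 8.44, 9.26 and 13.6 CPM and the treated ones 0.349, 1.09 and 1.75. In KPB25L-UV, where Mmp10 is abundant, the treated tumours had 59.8, 176 and 301 CPM against 54.7, 57.6 and 63.4, partly above them.

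Mmp13 was called higher (log2 fold change 0.54 ± 0.210, SE), but its call did not hold without any 1 of 10 models, which were KPB1-B (0.36 without it), T11 (0.38), 2153, C3-TAG, KPB25L-UV, MMTV-Neu, MMTV-PyMT, T11-APOBEC, T12 and p53RB-426. In T11 the untreated tumours had 2.19, 2.46, 4.63 and 13.4 CPM and the treated ones 19.4, 37.0 and 37.3. In p53RB-626 the treated tumours lay below, at 2.01, 2.30 and 3.67 CPM against 6.82 to 17.2 (median 8.52). Mmp12 was not called (0.36 ± 0.238, SE), and its models spread from -3.30 to 4.56 on the log2 scale. In 2153 it went from 2.16, 2.91 and 4.21 CPM to 54.4, 75.0 and 88.0, and in p53RB-626 from 6.37 to 19.2 CPM (median 11.9) down to 0.884, 1.06 and 1.72.

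Of the inhibitors, Timp3, which is bound to the matrix, was higher by 0.69 ± 0.133 (SE) on the log2 scale and higher in 13 models. Its median was 127 CPM untreated (26.7 to 669.6) and 212 treated (12.9 to 795). In 2153 it went from 183, 202 and 246 CPM to 687, 742 and 795. Timp1 was lower by 0.39 ± 0.0816 (log2 fold change -0.39), and lower in 11 models. In 2208 the untreated tumours had 76.9, 77.9 and 95.3 CPM and the treated ones 24.3, 25.3 and 32.8.

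Markers of other cells moved in the same comparison. Of 10 fibroblast markers 7 rose and none fell, and their summed level ranged from 1503 to 70561 CPM with trametinib (median 9473) and from 389.9 to 38729 without (median 7515). None of the 10 was at 0 in any tumour. All 8 endothelial markers fell, with sums of 49.4 to 484 CPM (median 156) against 84.8 to 669 (median 262). All 10 genes of ERK pathway output fell, Dusp6, a phosphatase induced by ERK, in 16 of 16 models by 1.27 ± 0.0827 (log2 fold change -1.27, adjusted p = 2.6e-22, edgeR). The part of these cells in the members' values was not tested.

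**Figure D2:**
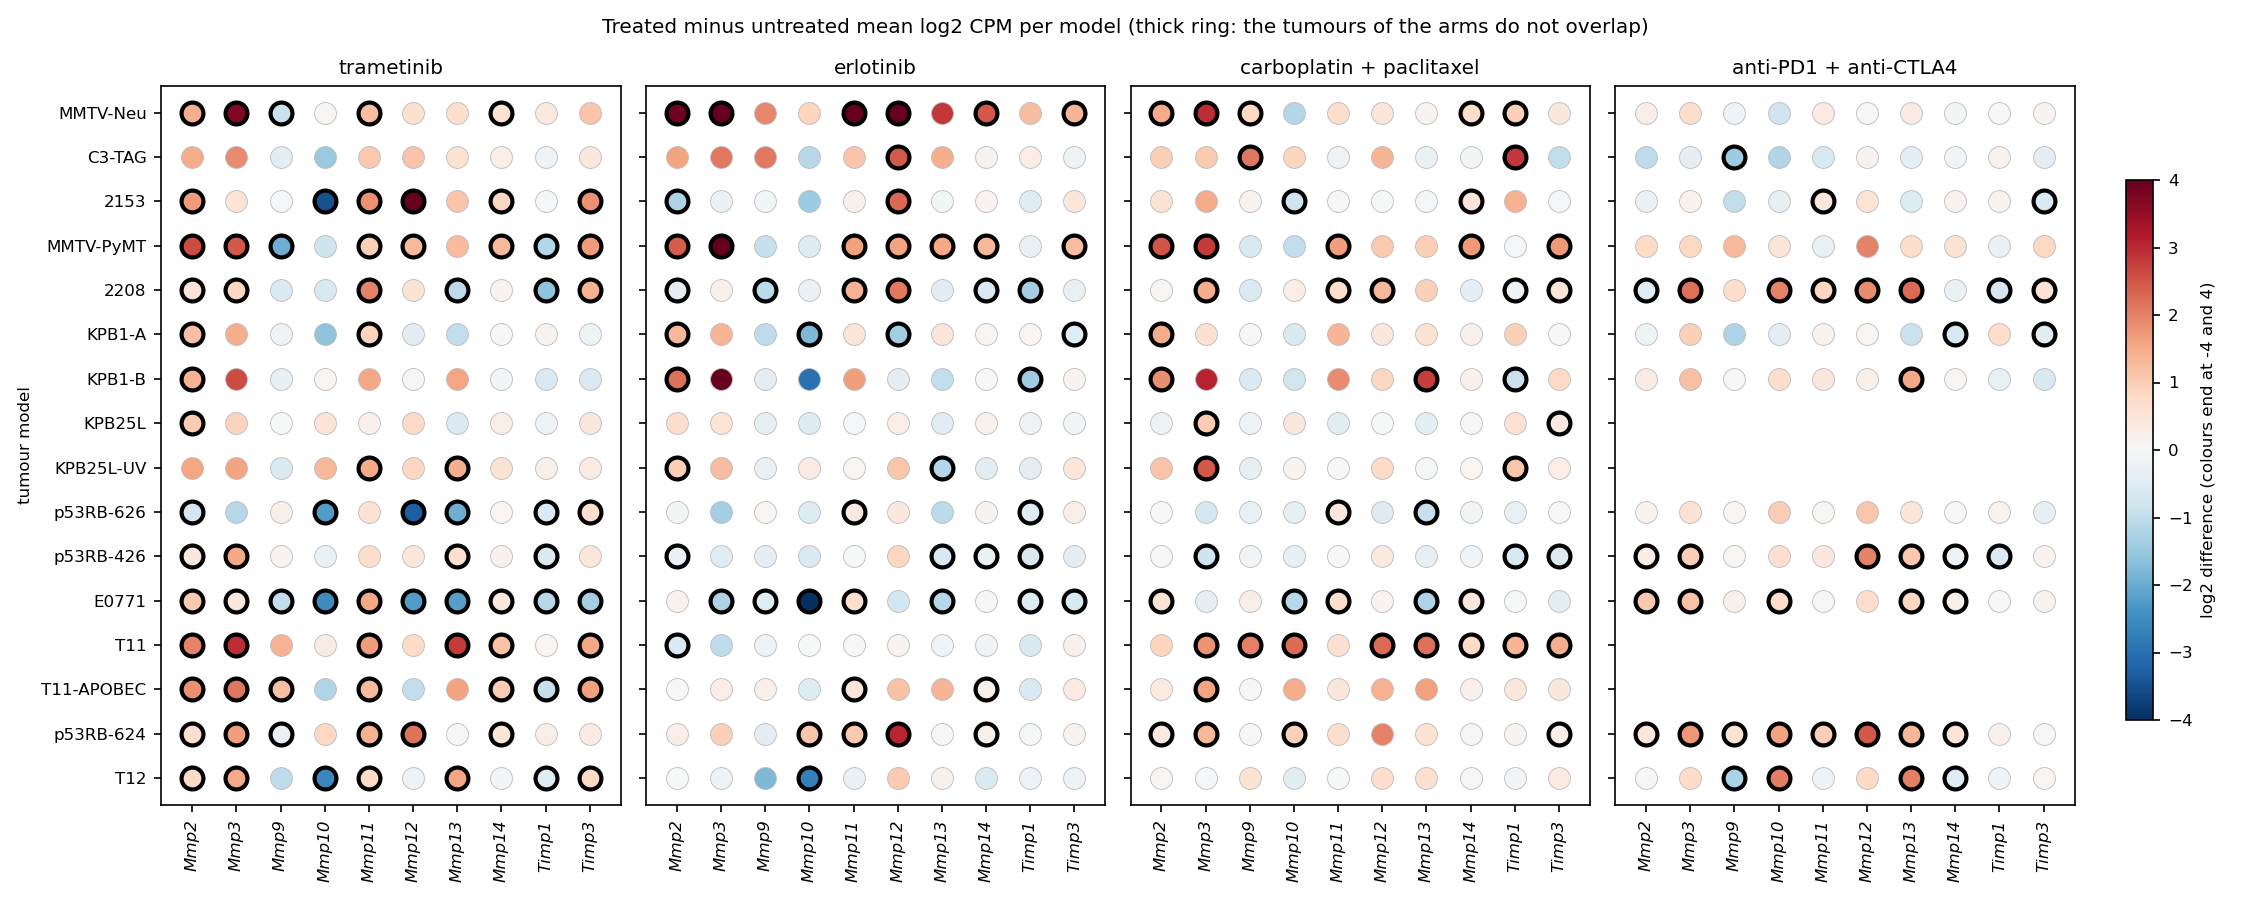
Change of each gene (columns) in each model (rows) with each treatment (panels). Colour is the difference of mean log2 CPM, treated minus untreated, from blue at -4 to red at 4, and thick rings mark models whose tumours do not overlap. With trametinib the Mmp11 column is red in all 16 models, and in the Mmp10 column the 4 ringed models are all blue.

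Erlotinib was compared in the same 16 models (48 against 54 tumours, the same untreated ones). Mmp12, Mmp11 and Mmp2 were called higher and Mmp10 and Timp1 lower. None of the 5 was called without replicate 1, that is, with the tumour numbered 1 left out of each group (Mmp12 1.10, Mmp11 0.68, Mmp2 0.79, Mmp10 -0.82 and Timp1 -0.34 on the log2 scale). Mmp2 and Mmp10 were also lost without replicate 2, and they and Timp1 without replicate 3. Of 25856 genes tested, 1.62% were called higher and 2.62% lower. The members' median log2 fold change was 0.15 and that of all genes -0.01. Both comparisons share their untreated tumours, so the values for the 2 drugs are given side by side and the likeness between them is not a result.

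Mmp12, the macrophage elastase, had the largest of these differences, 1.28 ± 0.265 (SE) on the log2 scale. Its median was 12.2 CPM untreated (2.16 to 186) and 31.4 treated (5.29 to 549.7), and 13 models were higher. MMTV-Neu had the widest gap, from 4.27, 6.96 and 9.33 CPM to 58.1, 491 and 549.7. In 2208 it went from 8.29, 11.3 and 11.9 CPM to 29.5, 39.8 and 75.5, whereas in KPB1-A the treated tumours lay below the untreated ones (log2 difference -1.38).

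Mmp11 was higher by 0.76 ± 0.152 (SE) on the log2 scale (13 models) and Mmp2 by 0.70 ± 0.187 (9 models). Mmp2 moved both ways without overlap, above in 5 models and below in 4. In MMTV-Neu it went from 16.7, 26.4 and 32.2 CPM to 102, 396 and 1159, and in 2153 from 86.1, 93.9 and 112 to 38.3, 42.5 and 43.7. Its call did not hold without MMTV-Neu (0.52), KPB1-B (0.53) or MMTV-PyMT (0.60).

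Mmp10 was lower in 13 models (log2 fold change -0.86 ± 0.233, SE), though not called without KPB1-B (-0.71), where it went from 0.0862 to 1.54 CPM (median 0.610) in untreated tumours to 0.0254, 0.0346 and 0.0900. Timp1 was also lower in 13 models (-0.36 ± 0.101), and not called without 2208 (-0.29) or KPB1-B (-0.28). Mmp3 (0.95 ± 0.326), Mmp9 (-0.17 ± 0.186), Mmp13 (0.14 ± 0.213), Mmp14 (0.17 ± 0.109) and Timp3 (0.14 ± 0.114) were not called, and Mmp3 was called without 2153, E0771, T11 or p53RB-626 (1.06 to 1.12). For Mmp3 this hid a wide spread, from -1.37 in p53RB-626 to 7.03 in MMTV-Neu, where the untreated tumours had 0.438, 0.910 and 1.42 CPM and the treated ones 26.4, 92.1 and 578.

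The MMTV-Neu tumours given erlotinib differed from the untreated ones in more than these genes. Their macrophage marker sums were 1301 to 6633 CPM (median 5069) against 354 to 632 (median 418), their fibroblast sums 1894 to 19338 (median 5456) against 389.9 to 908 (median 759), and their skeletal muscle sums 4.71 to 16644 (median 294) against 3.84 to 20.0 (median 13.8). They were also not adjacent to the untreated tumours in library number. Over all 16 models no fibroblast or macrophage marker passed the test with erlotinib. The part of these cells in the members' values was not tested.

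The models with and without adjacent untreated tumours differed in what they showed with erlotinib. In the 11 models with adjacent libraries the median difference was 0.19 for Mmp2, 0.31 for Mmp3, 0.39 for Mmp11 and 0.42 for Mmp12 on the log2 scale. In the 5 others (2153, 2208, C3-TAG, MMTV-Neu and MMTV-PyMT) it was 1.60 for Mmp2, 2.11 for Mmp3, 1.39 for Mmp11 and 2.28 for Mmp12. The model and the library number cannot be told apart in this split.

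Chemotherapy was compared in 16 models (48 against 54 tumours, again the same untreated ones). Of the members, 7 were called higher and none lower: Mmp3, Mmp12, Mmp2, Mmp11, Mmp13, Timp1 and Mmp14. Without replicate 1 only Mmp3 and Mmp2 were called, and Mmp12 (0.66), Mmp11 (0.31), Mmp13 (0.54), Timp1 (0.48) and Mmp14 (0.20) were not. Mmp13 was also lost without replicate 2, and Mmp13 and Mmp14 without replicate 3. Of 26710 genes tested, 11.6% were called higher and 5.89% lower, and the median log2 fold change was 0.59 over the members and 0.04 over all genes.

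Mmp3 had the largest difference, 1.54 ± 0.293 (SE) on the log2 scale. Its median was 10.3 CPM untreated (0.438 to 252) and 18.4 treated (0.751 to 689.5), and 12 models were higher. These were all 9 models without adjacent libraries (median difference 1.60 on the log2 scale) and 3 of the 7 with them (median -0.06). In p53RB-624 it went from 131, 136 and 252 CPM to 307, 337 and 689.5, and in p53RB-426 it was lower without overlap, from 19.2, 26.6 and 33.2 to 12.7, 14.3 and 16.5. Mmp12 was higher by 0.86 ± 0.195 (SE) in 13 models, but the groups overlapped in 14. An exception was T11, where the untreated tumours had 3.93, 5.53, 12.6 and 25.6 CPM and the treated ones 40.7, 43.9 and 47.8.

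Mmp2 (0.82 ± 0.144, SE, on the log2 scale, 14 models), Mmp11 (0.65 ± 0.158, 12 models) and Mmp14 (0.25 ± 0.0741, 12 models) were higher by smaller amounts. The Mmp14 call did not hold without MMTV-PyMT (0.16) or T11 (0.21). Mmp13 was called (0.60 ± 0.216), but not without any 1 of 2208, KPB1-A (0.51), MMTV-PyMT, T11, T11-APOBEC, p53RB-624 and KPB1-B (0.38). In KPB1-B it went from 3.65 to 8.95 CPM (median 5.66) to 17.5, 39.4 and 89.5. Mmp9 (0.24 ± 0.167), Mmp10 (0.05 ± 0.209) and Timp3 (0.29 ± 0.119) were not called, although Timp3 was called without C3-TAG (0.40) or p53RB-426 (0.34).

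Timp1, called lower with both kinase inhibitors, was called higher with chemotherapy, by 0.57 ± 0.153 (SE) on the log2 scale against the same untreated tumours. Its mean was higher in 7 of the 9 models without adjacent libraries and in 2 of the 7 with them. In C3-TAG the untreated tumours had 68.3, 89.3, 112 and 140.3 CPM and those given chemotherapy 527, 686 and 959. In T11 it went from 111, 163, 164 and 172 CPM to 305, 384 and 478. In KPB1-B it went down, from 36.7 to 65.8 CPM (median 55.9) to 27.0, 27.3 and 30.0, so the models did not move together.

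In the KPB1-A group given chemotherapy, 1 of the 3 tumours was highest for all 10 members, at a median of 13.5 times the next tumour. It is numbered replicate 1 and had 642 CPM of Mmp2, 129 of Mmp3, 154 of Mmp11, 273 of Mmp12, 209 of Mmp13 and 277 of Timp1, and the other tumours of the group had at most 94.8, 0.832, 8.72, 11.3, 10.5 and 25.5. Over the 97 groups with at least 3 tumours, the tumour that was highest most often was so for a median of 6 members. The highest marker sums of the KPB1-A group were 5078.6 CPM for macrophages (the other tumours 351 and 368), 11809.9 for fibroblasts (2251 and 2690) and 11743 for skeletal muscle (729 and 1526). Over all tumours given chemotherapy, 6 of 10 macrophage markers (sum median 1717 against 1629 CPM), 4 of 10 fibroblast markers (7712 against 7515), 5 of 10 neutrophil markers (43.6 against 33.9) and 6 of 8 markers of T and NK cells (18.2 against 11.4) rose. Their part in the members' values was not tested.

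The antibodies were compared in 12 models (36 against 41 tumours). Mmp12 and Mmp13 were called higher and no member lower. Neither was called without replicate 1 (0.98 and 0.64) or replicate 3 (0.93 and 0.74), and Mmp13 was not called without replicate 2 (0.74). Of 25562 genes tested, 4.98% were called higher and 3.14% lower, and the median log2 fold change was 0.12 over the members and 0.02 over all genes. Mmp12 had medians of 11.9 CPM untreated and 24.8 treated (range 2.02 to 216), a log2 fold change of 1.12 ± 0.248 (SE), and was higher in 11 models. In p53RB-426 it went from 19.6, 30.2 and 47.9 CPM to 86.3, 119 and 170.0.

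Mmp13 had medians of 16.3 and 17.5 CPM and a log2 fold change of 0.72 ± 0.203 (SE), without overlap above in 6 models and higher in 9. In 2208 it went from 33.5, 52.9 and 65.9 CPM to 168, 248 and 308, and in T12 from 21.2, 56.8 and 106 to 118, 230.2 and 307. Its call did not hold without 2208, KPB1-B, T12, p53RB-426 or p53RB-624, each in turn. The stromelysins lay on the same side without being called, Mmp3 at 0.73 ± 0.252 (SE) and Mmp10 at 0.59 ± 0.237. Without C3-TAG both were called (0.89 and 0.77), and without 2153 (0.84) or replicate 3 (1.11) Mmp3 was. In T12 Mmp10 went from 3.30, 11.2 and 12.3 CPM to 19.1, 33.9 and 49.2. Mmp2 (0.04), Mmp9 (-0.19), Mmp11 (0.20), Mmp14 (-0.04), Timp1 (-0.05) and Timp3 (-0.09) had the smallest differences.

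All 8 skeletal muscle markers fell with the antibodies, from a summed median of 140.1 CPM (3.70 to 4703) to 18.2 (1.17 to 776), and 2 of 10 neutrophil markers rose (62.0 against 35.2 CPM). No macrophage or fibroblast marker passed the test. Leaving out the 5% of tumours highest in muscle markers did not end either call. It ended the Mmp13 call with trametinib (0.51) and with chemotherapy (0.37).

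Over adjacent libraries alone, fewer members were called with every treatment. With trametinib (33 against 31 tumours, 11 models) the calls were 6: Mmp3 (1.52 on the log2 scale), Mmp11 (1.12), Mmp2 (1.08), Timp3 (0.51) and Mmp14 (0.36) higher and Timp1 (-0.35) lower, where 13.1% of all genes were called higher and 15.8% lower. Mmp10 (-0.55) and Mmp13 (0.48) were no longer called. With erlotinib only Timp1 was called (-0.49), and Mmp12 (0.75), Mmp2 (0.48), Mmp11 (0.43) and Mmp10 (-0.94) were not, where 1.38% were called higher and 1.94% lower.

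With chemotherapy (21 against 19 tumours, 7 models) only Mmp11 was called (1.01 on the log2 scale), and Mmp3 (1.08), Mmp2 (0.78), Mmp12 (0.81), Mmp13 (0.61) and Mmp14 (0.078) were not, where 2.13% of genes were called higher and 3.74% lower. Timp1 turned to -0.066. With the antibodies (9 against 9 tumours in C3-TAG, MMTV-Neu and MMTV-PyMT) none was called, with Mmp12 at 0.91 and Mmp13 at 0.15, where 0 of all genes were called higher and 0.0147% lower. These subsets are smaller and hold other models, so library number, model and number of tumours cannot be told apart in the lost calls.

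**Figure D3:**
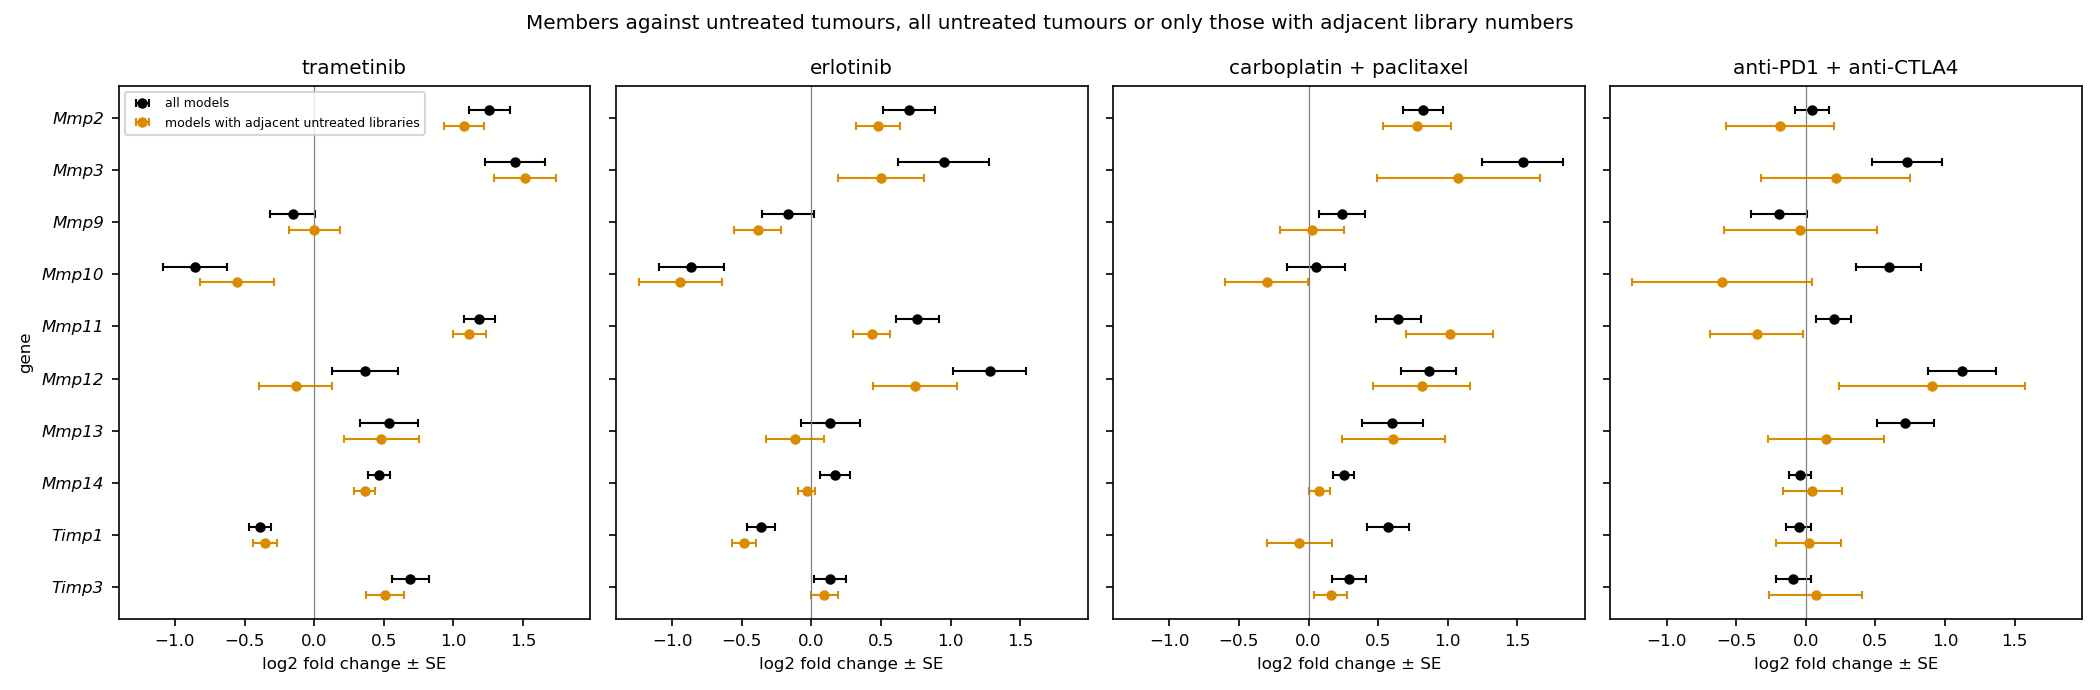
Change of each gene over all models (black) and over adjacent libraries alone (orange). The axis is the log2 fold change with its SE, in a panel for each treatment. With trametinib both points of Mmp2, Mmp3 and Mmp11 lie above 1, and with chemotherapy Timp1 goes from 0.57 to -0.066.

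The members were tested between treatments in models without untreated tumours, which had entered none of the comparisons above. Trametinib was compared with erlotinib in 6 such models, 2224, 2225, 2250, 2336, 4T1 and 9263 (17 against 18 tumours). None of the 10 members passed edgeR's quasi-likelihood test over 19964 genes, of which 0.446% were higher and 0.426% lower with trametinib, and 3 had an unadjusted p under 0.05. The largest positive difference was that of Mmp2, 0.52 on the log2 scale (95% interval 0.203 to 0.840, adjusted p = 0.101), higher in 5 of 6 models.

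In 2336 Mmp2 had 34.4, 42.8 and 52.4 CPM with trametinib and 19.5, 24.1 and 33.2 with erlotinib. In 4T1 it had 122, 124 and 160.3 against 91.2, 91.3 and 105. In 2225 the groups overlapped, with 58.2, 86.2 and 159 against 106, 112 and 125. DESeq2 called Mmp2 in this comparison (log2 fold change 0.53, adjusted p = 0.0312), and edgeR did so without 2225 (0.67, adjusted p = 0.0143). In the 16 models with untreated tumours, given as a description, the difference between the drugs was 0.56 ± 0.196 (SE).

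Mmp12 and Mmp9 were lower with trametinib than with erlotinib in 5 of these 6 models each, without passing the test. Mmp12 differed by -0.74 on the log2 scale (95% interval -1.30 to -0.169, adjusted p = 0.225, edgeR) and Mmp9 by -0.66 (-1.18 to -0.152, adjusted p = 0.225). In 4T1 Mmp12 had 52.6, 65.8 and 87.9 CPM with trametinib and 87.8, 148 and 164 with erlotinib, and Mmp9 had 48.4, 62.0 and 66.9 against 87.4, 87.5 and 122. In the same 4T1 tumours the macrophage marker sums were 659 to 983 CPM against 2333 to 2998. In the other models of this comparison the sums of the arms overlapped. They were 436 to 608 CPM against 252 to 460 in 2225 and 1108 to 1307 against 958 to 1362 in 2250. The Mmp12 differences in these 2 models were -1.05 and -1.85. The part of macrophages in the differences was not tested.

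The intervals of the others bound what these tumours could show. Mmp14 differed by -0.02 on the log2 scale (95% interval -0.209 to 0.164) and Timp3 by -0.01 (-0.273 to 0.255), the narrowest of the 10. For Mmp11 the interval was -0.175 to 0.435, for Timp1 -0.562 to 0.283, for Mmp3 -0.579 to 0.788 and for Mmp13 -0.891 to 0.544. Mmp10, with no count in any of the 3 trametinib tumours of 2225, had the widest, -1.02 to 0.952. Of the fibroblast markers, 4 of 10 rose here with trametinib against erlotinib (sum median 5902 against 3613 CPM).

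Chemotherapy was compared with the antibodies in 4 of these models, 2224, 2250, 4T1 and 9263 (12 against 12 tumours). No member passed edgeR's test over 21611 genes, of which 0.00463% were higher and 0.0185% lower with chemotherapy, and 2 had an unadjusted p under 0.05. DESeq2 called no member either. Mmp9 differed by -0.59 on the log2 scale (95% interval -1.04 to -0.141, adjusted p = 0.224, edgeR) and Timp1 by -0.53 (-0.987 to -0.0661, adjusted p = 0.278), both lower with chemotherapy in 3 of 4 models.

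Both differences were widest in 4T1, the only 1 of the 4 models whose arms were not adjacent in library number, so that library number and treatment cannot be told apart in it. There Mmp9 had 120.0, 148 and 182 CPM with chemotherapy and 479, 524 and 537 with the antibodies, and Timp1 had 115, 121 and 130.2 against 151, 277 and 429.7. Mmp10 (7.44, 14.0 and 29.8 against 47.4, 62.1 and 167 CPM), Mmp13 (34.9, 89.7 and 108 against 166, 235 and 419) and Timp3 (23.3, 30.6 and 34.4 against 65.4, 70.3 and 72.6) did not overlap in this model either, all higher with the antibodies. Over the 4 models their intervals all included 0, from -1.56 to 0.0434 for Mmp10, from -1.10 to 0.347 for Mmp13 and from -0.740 to 0.152 for Timp3. In the 3 models with adjacent arms the median difference was -0.28 for Mmp9, -0.34 for Timp1, -0.55 for Mmp10, 0.18 for Mmp13 and -0.29 for Timp3 on the log2 scale, against -1.79, -1.10, -2.43, -1.87 and -1.26 in 4T1.

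**Figure D4:**
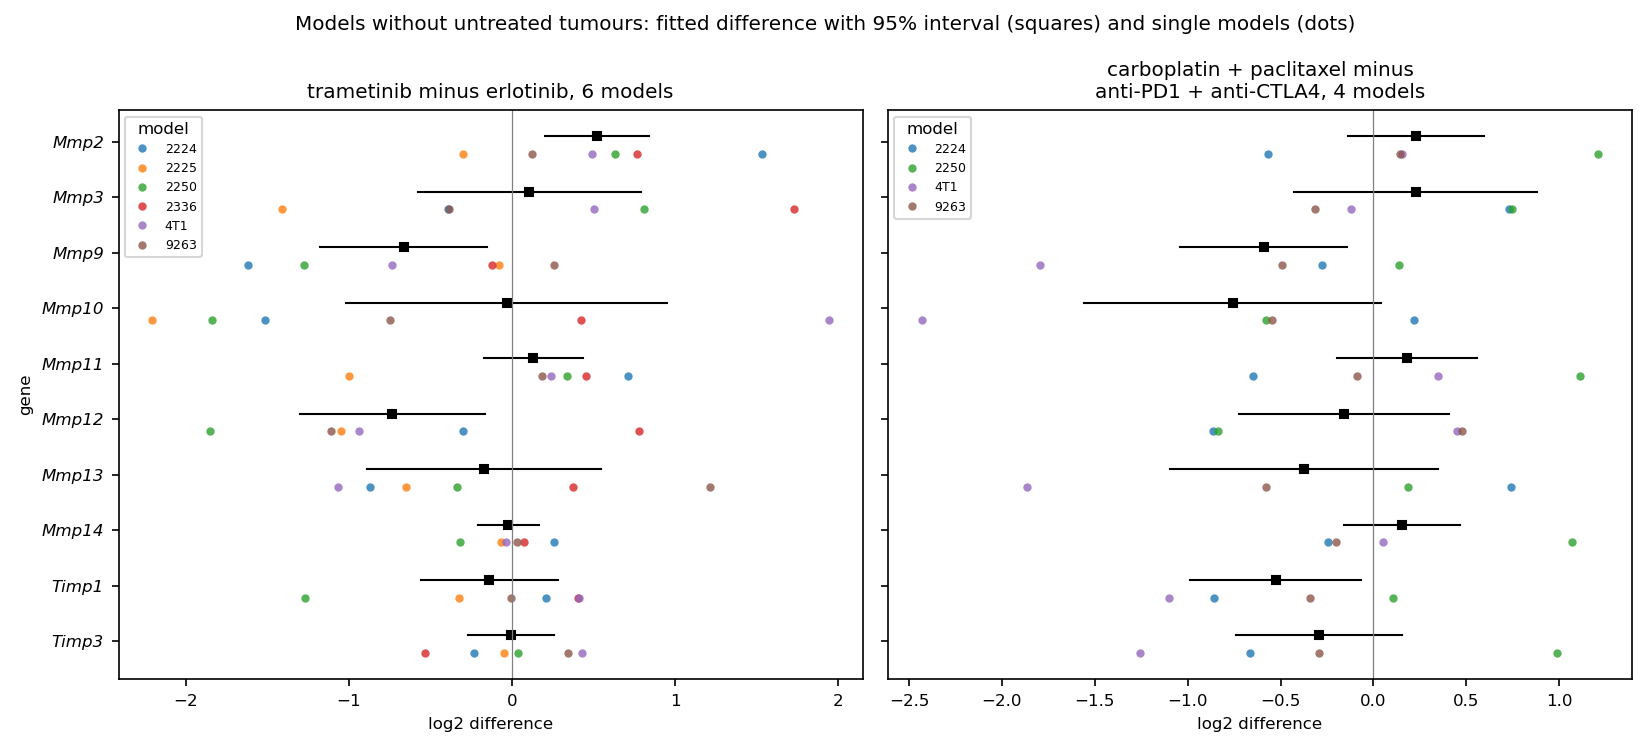
Members in models without untreated tumours. The horizontal axis is the log2 difference, in one panel trametinib minus erlotinib and in the other chemotherapy minus antibodies. Squares with lines are the fitted difference and its 95% interval, and dots are the models in their own colours. The Mmp2 dots of 5 of 6 models lie above 0 in the first panel, and in the second the lowest Mmp9 dot, at -1.79, is 4T1.

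Salmon divides a read that matches several transcripts, which gives estimated counts that are not whole. Of the tumours, 81.9% had an estimated count of Mmp10 that was not whole and 78.6% one of Mmp3, against 12.6% for Mmp12, 9.06% for Mmp11 and 5.50% for Timp3. Mmp3 and Mmp10 are similar in sequence, and which genes their divided reads were shared with is not given in the table, so their values as single genes are uncertain. Summed, Mmp3 plus Mmp10 had log2 fold changes of 1.18 ± 0.197 (SE) with trametinib, 0.70 ± 0.301 with erlotinib, 1.31 ± 0.258 with chemotherapy and 0.73 ± 0.230 with the antibodies. The sum was called with the antibodies, where neither gene alone was.

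The 2 genes nevertheless kept separate levels. In MMTV-PyMT given erlotinib Mmp3 had 69.6, 80.2 and 87.3 CPM and Mmp10 0.0942, 0.175 and 0.318. In untreated KPB25L the order was the opposite, with 13.7, 34.6 and 38.6 CPM of Mmp3 and 50.4, 85.4 and 131 of Mmp10. No order between them held for all models.

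**Figure D5:**
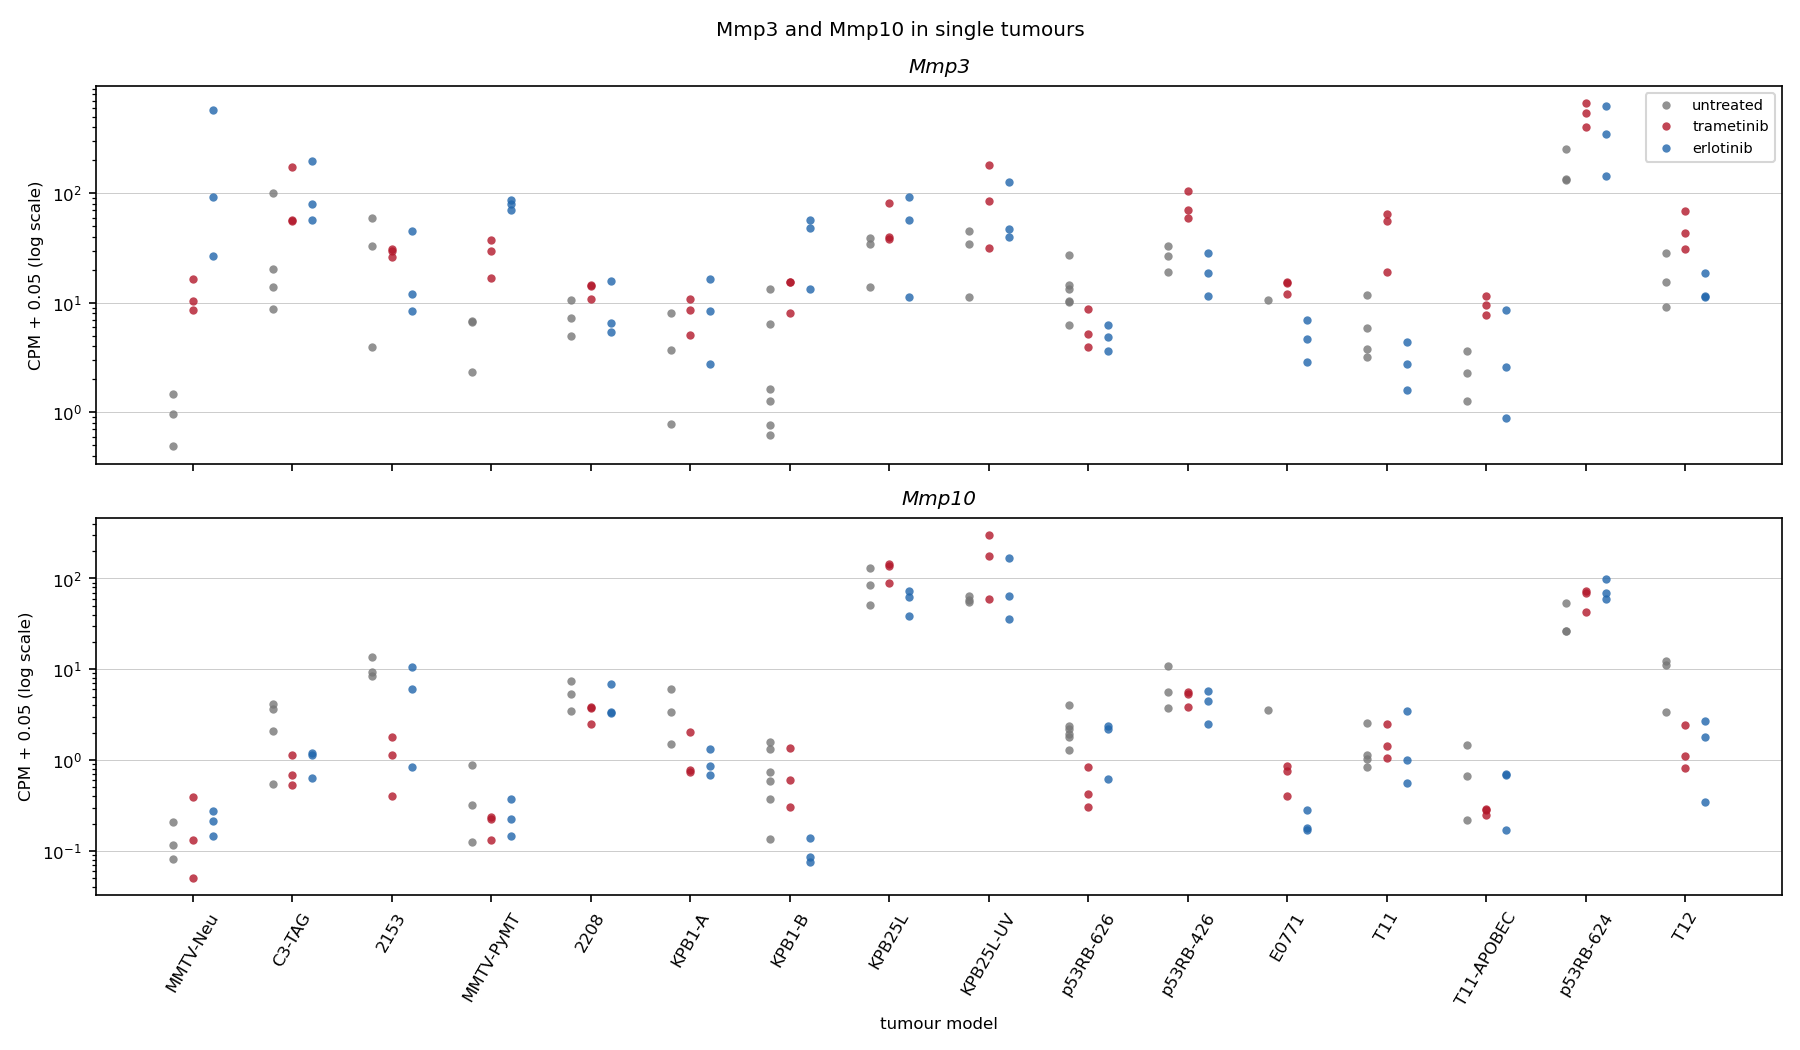
Mmp3 and Mmp10 by model in untreated, trametinib and erlotinib tumours. The vertical axis is CPM plus 0.05 on a log scale and each point is a tumour. The mean log2 CPM of Mmp3 is higher with trametinib in 15 of 16 models, though the tumours of the arms overlap in 7. The untreated Mmp10 means reach 88.8 CPM in KPB25L and 0.0843 in MMTV-Neu.

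Likeness of pattern was measured by Spearman's rho of log2 CPM, over the 100 group means and, separately, over the deviations of 307 tumours from their group means. These are descriptions: the points share libraries, depth and controls, and the members were not compared with all possible lists. Over group means Mmp2 was most like Dcn (0.87), a collagen-binding proteoglycan, Col3a1 (0.84), a fibrillar collagen, and Lpar1 (0.83). Within groups it was most like Bgn (0.75), Col3a1 (0.74) and Col1a1 (0.72). Mmp2 also followed the mean of the fibroblast markers, with a rho of 0.82 over groups and 0.76 within them.

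Mmp3 was most like Bicc1 (0.72), Cpxm1 (0.69) and Lum (0.65) over groups and Cpxm1 (0.68), Rarres2 (0.66) and Dcn (0.59) within. Mmp14 was most like Nrp2 (0.90), St3gal2 (0.89) and Pcolce (0.89), an enhancer of procollagen processing, and within groups like Bmp1 (0.65), the protease that cuts procollagen. Mmp11 was most like another inhibitor, Timp2 (0.75), and Ahnak2 and Numbl (0.74 each), and within groups like Numbl (0.61), Lrrc32 (0.59) and Pdgfrb (0.58), a receptor of mesenchymal cells. Timp3 was most like Cd200 (0.73), Cd248 (0.69) and Sulf1 (0.67).

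Mmp12 stood with other genes. With the mean of the macrophage markers Mmp12 had a rho of 0.49 over groups and 0.08 within them. It was most like Rgs1 (0.70), the membrane protease Adam8 (0.68) and Zc3h12a (0.68) over groups and Il1rn (0.67), the interleukin 1 receptor antagonist, Gpr35 (0.61) and Adam8 (0.57) within. Mmp13 was most like Gpr35 (0.74), Sdc1 (0.70) and Ccn1 (0.69), and Mmp10 like Tnc (0.75), a matrix glycoprotein, Ifitm1 (0.74) and Inhba (0.74). Within groups Mmp10 and Mmp13 shared Grem1, an antagonist of bone morphogenetic proteins (0.49 and 0.52), and Prdm1 (0.39 and 0.56).

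Mmp9 was most like Bmp1 (0.87), Tnfrsf9 (0.87) and Ankrd1 (0.86), and Timp1 like Ankrd1 (0.87), Bmp1 (0.86) and Tnfrsf12a (0.86). These 2 members were also the pair most alike over groups (0.84), before Mmp9 with Mmp14 (0.83) and Mmp14 with Timp1 (0.78). Within groups the pair most alike was Mmp10 with Mmp13 (0.59), followed by Mmp2 with Mmp14 (0.58). Mmp10 with Mmp13 had 0.76 over groups and Mmp2 with Mmp14 had 0.68, and Mmp9 with Timp1 had 0.39 within groups.

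Beside the members, 63 further genes of proteases, inhibitors and matrix substrates were examined. With trametinib 22 of the 60 tested rose and 11 fell, with a median log2 fold change of 0.17. Of all genes tested, 14.1% were called higher and 14.1% lower. Of the 4 tested inhibitors outside the members 3 rose, with Timp2 at 535 CPM untreated and 970 treated (medians), higher in 16 of 16 models by 1.08 ± 0.108 on the log2 scale (SE; adjusted p = 3.25e-13, edgeR). Reck, a membrane-anchored inhibitor, rose by 0.81 ± 0.160 (adjusted p = 3.83e-05). The largest changes were those of Mmp27 (1.49 ± 0.206, adjusted p = 1.45e-08) and Eln, which encodes elastin (1.32 ± 0.292, adjusted p = 0.000223). Timp4 (1.15 ± 0.399) also rose, at a median of 0.0336 CPM.

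Of 10 matrix substrates 5 rose and 3 fell with trametinib. Col1a1, a chain of fibrillar collagen I, rose by 1.05 ± 0.139 (SE) on the log2 scale in 15 of 16 models (adjusted p = 4.5e-09, edgeR), and Col4a1, a chain of basement membrane collagen, fell by 0.43 ± 0.0919 (adjusted p = 0.000129). Of 8 cathepsins 6 rose, among them Ctsd (0.58 ± 0.0699), and Ctsc fell by 0.66 ± 0.103. Of 8 genes of the plasminogen system 3 fell, among them Plau, the urokinase (log2 fold change -0.46 ± 0.101, adjusted p = 0.000206), and 1 rose. Adamts14, a procollagen protease, fell by 0.60 ± 0.108, and Mmp1a was called lower with a median of 0 CPM in both groups.

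With erlotinib 6 of 60 rose and none fell, the largest by log2 fold change being Mmp27 (1.20 ± 0.252, SE), Mmp8 (1.14 ± 0.267) and Timp2 (0.48 ± 0.127). With chemotherapy 24 of 61 rose and none fell, among them Mmp8, the collagenase of neutrophils (1.23 ± 0.236), Mmp27 (1.21 ± 0.230), Mmp24 (0.74 ± 0.178), Timp2 (0.59 ± 0.120) and 6 of 8 cathepsins. With the antibodies 5 of 62 rose and none fell, the largest being Plau (0.35 ± 0.0926), Ctsl (0.23 ± 0.0711) and Ctsd (0.23 ± 0.0675). The adjusted p of each lay under the threshold in edgeR's test, and these comparisons share their untreated tumours. Of all genes tested, 1.62% were called higher and 2.62% lower with erlotinib. The shares were 11.6% and 5.89% with chemotherapy and 4.98% and 3.14% with the antibodies.

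Between trametinib and erlotinib in the 6 models without untreated tumours, 3 of 55 rose and 2 fell. Of all genes tested there, 0.446% were higher and 0.426% lower. Col1a1 (0.75 on the log2 scale), Col1a2 (0.74) and Adamts5 (0.66) were higher with trametinib. Plau was lower by 0.50 ± 0.0796 (SE, log2 fold change -0.50, adjusted p = 0.0015, edgeR) and Serpine2, an inhibitor of plasminogen activators, by 0.54 ± 0.134 (adjusted p = 0.0429), each in 6 of 6 models. Without replicate 2 no gene of the whole table was called in this comparison, these 5 included. Between chemotherapy and the antibodies none of 59 was called.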

How the data were processed

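Poly(A) RNA from 309 mouse mammary tumours was made into TruSeq mRNA libraries, per the labels' protocols. STAR, SAMtools, Picard and Salmon and the build mm10 are named in the submitters' processing notes, without versions (settings: not given in the sources used here). Salmon's estimated counts, unscaled, fill the deposited table, and of these 8.35% were not whole; they were rounded. A second table holds a signal that the authors normalized to the upper quartile, used as an alternative. No columns were identical.

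The members and lists were chosen with earlier results of these data known. Low counts were removed by filterByExpr over model and treatment. EdgeR 4.0.16 (limma 3.58.1, DESeq2 1.42.0, R 4.3.3) tested each treatment over the models that held both arms, with TMM scaling, the model as a factor and a trended dispersion, which fits without a library or model kept. Calls used a Benjamini-Hochberg adjusted p under 0.05 over all tested genes, and SE came from the quasi-likelihood F. CPM used TMM over all libraries, log2 CPM a prior count of 2, and limma a pseudocount of 1. Models were counted as higher or lower by their mean log2 CPM. The test was checked on simulated data.

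Named genes were all members, in each comparison the called listed genes with the 3 largest rises and falls, and for each member the 3 genes most like it, with mean log2 CPM no lower than 2. Genes named beyond that rule (Reck, Ctsd, Col1a1, Col4a1, Plau and Timp2 with trametinib, Timp2 with chemotherapy) were chosen after their values were seen. Tumours were grouped by model and treatment in their titles. For 3 tumours titled KPB25L-UV with chemotherapy the library names begin with KPB25L. Counting error was not compared with the spread between tumours. It weighs most on low values, such as those of Mmp10 and, in untreated MMTV-Neu, of Mmp3 and Mmp9. Alternatives were other normalizations, filters and tests, adjacent libraries, and leaving out replicates or models. Chosen after seeing the data were untreated tumours of the labelled set, the sum of Mmp3 and Mmp10, and leaving out the tumours highest in muscle markers.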

Additional observations from a re-analysis of the deposited data

Results flagged for a closer look

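Single untreated tumours stood apart in 8 of 50 tests of groups with 4 to 10 tumours. The rule's rate of about 1 in 20 holds for normally distributed values, and CPM values are skewed. The tests also take the members in the same tumours and are not independent, so nothing is read from the count. In C3-TAG 1 tumour had 99.7 CPM of Mmp3 (next 20.2) and 49.0 of Mmp9 (next 19.7). In K14-TRT 1 tumour had 15.9 CPM of Mmp10 (next 4.76) and 19.2 of Mmp13 (next 8.32). In KPB1-B 1 had 20.5 CPM of Mmp11 (next 8.22) and 1 had 119 of Timp3 (next 59.7). In T11 1 had 447 CPM of Timp3 (next 156), and the lowest Timp1 value was 111 (next 163).

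In 23 cases all tumours of 1 model lay above those it was compared with and all tumours of another lay below. These differences between models were not tested. The share of all genes with such opposed models was not counted, so nothing is read from the 23. With trametinib the gap between the 2 models, on the log2 scale, was 7.86 for Mmp12 (4.56 in 2153, -3.30 in p53RB-626), 4.75 for Mmp13 (2.80 in T11, -1.95 in p53RB-626), 3.36 for Mmp2 (2.62 in MMTV-PyMT, -0.74 in p53RB-626) and 3.14 for Mmp9 (1.20 in T11-APOBEC, -1.95 in MMTV-PyMT). The p53RB-626 tumours given trametinib were thus the low end for 3 of these 4 genes.

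With erlotinib MMTV-Neu was the high end of 4 genes. The gap was 6.64 for Mmp12 (5.26 in MMTV-Neu, -1.38 in KPB1-A), 5.12 for Mmp2 (3.89, -1.22 in 2153), 3.11 for Mmp14 (2.50, -0.61 in 2208) and 1.85 for Timp3 (1.36, -0.49 in KPB1-A). It was 3.88 for Mmp10 (1.14 in p53RB-624, -2.74 in T12) and 2.72 for Mmp13 (1.55 in MMTV-PyMT, -1.17 in KPB25L-UV).

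With chemotherapy the gap was 3.79 for Mmp3 (2.96 in MMTV-Neu, -0.83 in p53RB-426), 3.74 for Mmp13 (2.77 in KPB1-B, -0.97 in p53RB-626), 3.71 for Timp1 (2.83 in C3-TAG, -0.89 in KPB1-B), 3.08 for Mmp10 (2.26 in T11, -0.82 in 2153) and 2.25 for Timp3 (1.74 in MMTV-PyMT, -0.50 in p53RB-426). With the antibodies it was 2.03 for Mmp9 (0.59 in p53RB-624, -1.44 in C3-TAG), 1.20 for Mmp14 (0.53 in p53RB-624, -0.67 in KPB1-A), 1.20 for Timp3 (0.58 in 2208, -0.62 in 2153) and 0.945 for Mmp2 (0.47 in p53RB-624, -0.47 in 2208).

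Between trametinib and erlotinib the gap was 4.15 for Mmp10 (1.94 in 4T1, -2.21 in 2225) and 1.71 for Mmp11 (0.71 in 2224, -0.998 in 2225). Between chemotherapy and the antibodies it was 2.24 for Timp3 (0.99 in 2250, -1.26 in 4T1) and 1.78 for Mmp2 (1.21 in 2250, -0.57 in 2224). The Mmp10 value of 2225 sets 0 CPM in every trametinib tumour against a mean of 0.144 CPM with erlotinib. Its size thus depends on the prior count and the depth.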

How the results depend on the processing

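Over the 10 members and 4 treatments against untreated tumours (40 values), the call and direction stayed the same in 40 with DESeq2's size factors, in 38 with its test (2 gained), in 36 with the authors' normalized table and limma (1 lost, 3 gained), in 38 with no filter (2 lost), in 34 with untreated tumours of the labelled set (5 lost, 1 gained) and in 38 without the tumours highest in muscle markers (2 lost). Over adjacent libraries 26 stayed, 13 lost the call and 1 reversed: Timp1 with chemotherapy, at -0.066. Leaving out each model in turn kept 561 of 600 (30 lost, 9 gained) and leaving out each replicate kept 92 of 120 (27 lost, 1 gained).

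The count of genes called with erlotinib went from 1095 to 2663 with limma. The members called over adjacent libraries were 1 of the 5 with erlotinib, 1 of the 7 with chemotherapy and 0 of the 2 with the antibodies. Genes called with chemotherapy numbered 1413 over adjacent libraries and 1672 with the labelled set (4 members), and with the antibodies 3 and 1023 in place of 2075. Between trametinib and erlotinib DESeq2 called 508 genes and 1 member in place of 174 and 0. Between chemotherapy and the antibodies 5 genes became 15 with no filter, 430 with DESeq2, 3 with its size factors, 0 with limma and 0 over adjacent libraries. The cause of each move was not tested.

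Leaving out 1 replicate or model, the genes called ranged with trametinib from 4458 (without replicate 2) to 7939 (without MMTV-PyMT) and the members from 6 to 8, with erlotinib from 72 (without replicate 3) to 1494 (without KPB25L) and from 0 to 6, and with chemotherapy from 1665 (without replicate 1) to 5754 (without MMTV-PyMT) and from 2 to 8. They ranged with the antibodies from 170 (without replicate 1) to 3401 (without MMTV-PyMT) and from 0 to 4, between trametinib and erlotinib from 0 (without replicate 2) to 994 (without 2225) and from 0 to 1, and between chemotherapy and the antibodies from 0 to 15 (without 2250) with 0 members throughout. The share of called genes that were higher moved with limma to 12.5% for erlotinib, 88.1% for chemotherapy and 75.7% for the antibodies, to 48.1% for the antibodies with DESeq2 and 48.3% with its size factors, and to 36.3% for chemotherapy over adjacent libraries. The median of all genes moved by more than 0.1 only with limma between chemotherapy and the antibodies (0.150). No paired analysis was possible because the labels give tumours no replicate numbers that groups share. Depth limited Mmp10, which had no count in 6 of 309 tumours.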
